A study of Mus musculus with 48 samples.

Results

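The Slc30a genes encode the zinc transporters known as ZnT proteins, and their mRNA levels were followed through 13 sorted cell populations of the mouse pancreas on 48 whole-genome expression arrays. Of 18194 genes with a probe assigned to a single gene, 9 were taken as the family: Slc30a1, Slc30a2, Slc30a4, Slc30a5, Slc30a6, Slc30a7, Slc30a8, Slc30a9 and Slc30a10. Slc30a3 also had such a probe but is not among these 9. Its brightest probe exceeded 100 on the linear scale in only 1 array, of adult duct cells (log2 6.99). Where a gene had several such probes, the one that was brightest on average was read. A probe entered the tests if it exceeded 100 on the linear scale (6.64 on the log2 scale) in at least 1 array, and 8 of the 9 genes passed, along with 14405 genes in all. Slc30a2 never passed, with a highest value of 6.42. All levels below are log2 values normalized together, and since probes differ in brightness, a level is compared only between populations on the same probe, never between genes.

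All mice were on the CD-1 background and all populations were wild type except 1. The endocrine cells were beta cells from E15.5 (4 arrays), E17.5 (3), P0 (3), P15 (4) and adult mice of 8 to 12 weeks (4), sorted with a green fluorescent protein driven by the mouse insulin promoter, and alpha cells from P0 (4) and adult mice (5), sorted with a glucagon-driven Venus reporter. Endocrine progenitors (EP, 3 arrays) came from E15.5 embryos with a Neurog3-eGFP transgene. Neurog3-null cells (4 arrays) came from E15.5 embryos in which eGFP replaced both Neurog3 copies, so the null cells and their wild-type counterpart were sorted from different reporter lines. The non-endocrine wild-type cells were Sox9+ progenitors from E11.5 (4), progenitors (3) and acinar cells (3) from E15.5, and adult duct cells (4). The E11.5 cells were sorted on a Sox9-eGFP transgene whose protein outlasts Sox9 itself, so that gate also holds some progeny that had already turned Sox9 off. By the paper's methods, surface antigens together with transgenic labelling were used to collect E15.5 progenitors, EP and acinar cells alike. CD133 defined the duct gate. Fetal pancreata were pooled for sorting, and nothing in the labels ties an array to a single animal.

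ZnT proteins move zinc out of the cytosol, either across the plasma membrane or into organelles and vesicles, and the Slc39a (ZIP) proteins move it the other way. In pancreatic beta cells, zinc is packed with insulin into dense-core granules, where it holds the hormone in crystalline hexamers. Zinc entering the cytosol is bound by metallothioneins and sensed by the transcription factor Mtf1, which binds short metal response elements in the promoters of its targets.

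Array medians lay between 6.58 and 6.88, and the correlation of any array with another of its own population was at least 0.94. Between arrays of different populations it reached 0.976, so the value of 0.94 alone does not tell populations apart. Defining markers fitted most labels: Sox9 averaged 12.51 in E11.5 and 12.56 in E15.5 progenitors, Cpa1 14.08 in acinar cells and Krt19 13.81 in duct cells. The hormone probes Gcg (13.75 to 14.09 in the beta cell populations, 14.48 in adult alpha cells) and Ins2 (14.65 in adult beta, 13.91 in adult alpha cells) were near the top of the scale, where such abundant mRNAs can saturate a probe, so they do not measure the purity of these gates. Markers of other cells were high in several populations, although Ter119 and CD45 gates were meant to remove blood cells. The mean level of 17 macrophage and leukocyte markers was 11.64 in adult duct cells, 11.34 in Neurog3-null cells, 11.30 in adult beta cells and 9.94 in P0 beta cells, against 5.80 in adult alpha cells and 5.14 in E11.5 progenitors. The 12 mesenchymal markers averaged 11.92 in E17.5 and 12.39 in P0 beta cells and 11.05 in P0 alpha cells, and between 5.77 and 9.87 elsewhere. The 12 endothelial markers averaged 10.14 in E17.5 and 10.93 in P0 beta cells. The 13 acinar markers measured averaged 12.99 in acinar cells, 12.88 in duct cells, 12.47 in adult beta cells, 12.08 in P0 beta cells and 12.01 in null cells.

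Slc30a8 encodes ZnT8, the transporter that loads zinc into insulin granules, and it had the widest range of the family. Its population means spanned 9.28 log2 units, while the 7 other tested members spanned between 0.98 and 1.91. In the 27 beta and alpha cell arrays Slc30a8 lay between 12.17 and 13.67, with a median of 12.99. In the 14 arrays of E15.5 progenitors, acinar cells, duct cells and Neurog3-null cells it lay between 3.95 and 5.31, below the 100 level, so the size of a difference to these cells is not exact. EP and E11.5 progenitors lay between these ranges and overlapped neither. In order of level, adult alpha and P15 beta cells overlapped each other, as did adult, E17.5 and P0 beta cells, then P0 alpha and E15.5 beta cells. The last 4 populations, at the bottom of the order, also overlapped their neighbours.

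**Figure D1:**
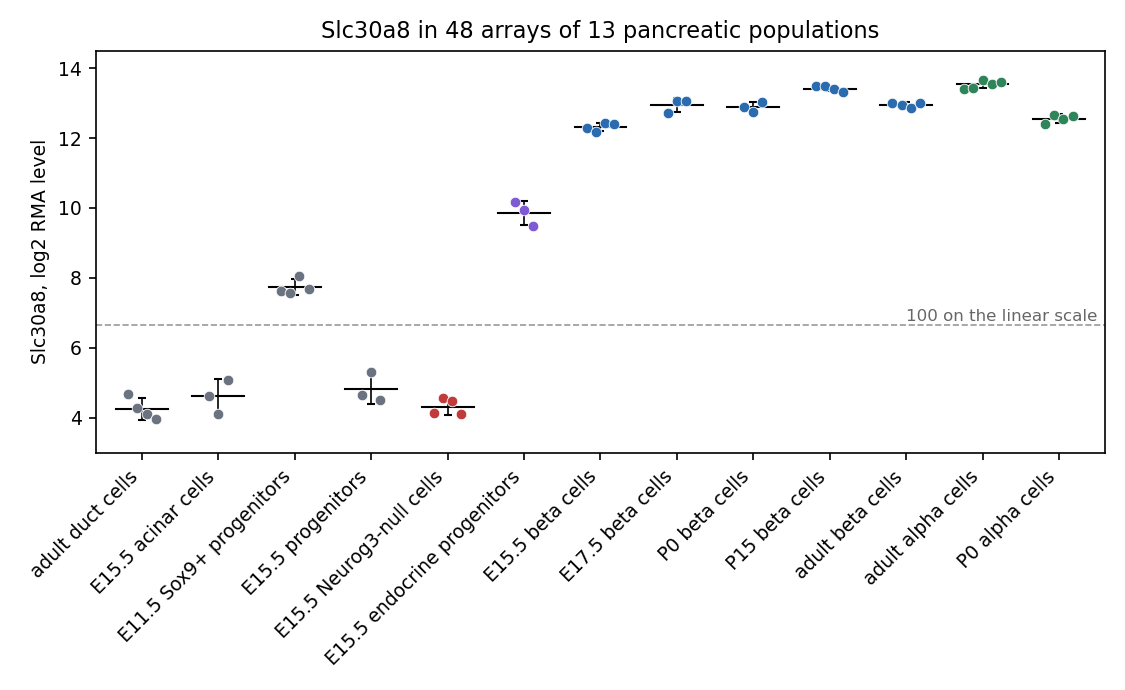
Slc30a8 log2 level (vertical axis) in each of the 48 arrays, by population along the horizontal axis. Points are arrays, black lines population means, bars SD, and the dashed line marks 100 on the linear scale: all beta and alpha cell arrays lie at or above 12.17, EP at 9.49 to 10.17, E11.5 progenitors at 7.57 to 8.06, and the remaining populations at or below 5.31.

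The beta and alpha populations were first set against the wild-type non-endocrine cells, to see which family members marked the endocrine lineage. Slc30a8 averaged 12.95 over the 7 beta and alpha populations and 5.35 over the 4 non-endocrine ones, a difference of 7.59 ± 0.08 (SE) or 193-fold (limma, adjusted p = 1.12e-42). It was the only one of 8 members that passed both a Benjamini-Hochberg adjusted p of 0.05 and a 2-fold change, the rule for a call throughout, against 24.4% of all genes. With adult beta and duct cells set aside, where the macrophage markers were highest among wild-type cells, the difference was 7.23. A further 4 members had an adjusted p below 0.05 with less than a 2-fold difference: Slc30a1 at 0.38, Slc30a4 at 0.37, Slc30a7 at 0.57 and Slc30a9 at 0.56. Second, dimmer probes of Slc30a1 and Slc30a7 went the other way, at -0.42 and -0.26. In sorted bulk RNA such as this, fewer cells of a type and less RNA per cell cannot be told apart.

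Slc30a8 was next compared between EP and E15.5 progenitors. It was 10.17, 9.93 and 9.49 in EP, against 4.64, 5.31 and 4.51 in E15.5 progenitors. Every EP array lay above every progenitor array, with a difference of 5.05 ± 0.20 or 33.0-fold (limma, adjusted p = 2.54e-22). Slc30a8 was the only member of 8 called at this step, where 22.5% of genes were. Slc30a9 was 0.56 higher (adjusted p = 3.01e-04), Slc30a4 0.31 higher (0.037) and Slc30a5 0.51 lower (0.025), all short of 2-fold. Hormone-cell markers differed as well: Gcg was 13.93, 13.99 and 13.74 in EP, against 7.99, 7.56 and 9.30 in E15.5 progenitors. The alpha cell markers measured averaged 11.65 in EP and 7.38 in E15.5 progenitors. The part of hormone-expressing cells in the EP level of Slc30a8 was not tested.

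Slc30a8 rose again in E15.5 beta cells, which had 12.28, 12.17, 12.43 and 12.41, against the EP values above. The groups did not overlap and differed by 2.46 ± 0.19, a 5.49-fold change (limma, adjusted p = 3.39e-13). It was 1 of 8 members called, against 11.3% of genes. The secretory-pathway members Slc30a5 and Slc30a7 were 0.82 and 0.81 higher in the beta cells (adjusted p = 3.34e-04 and 2.32e-04). Neither overlapped EP on its brightest probe. On the dimmer Slc30a7 probe the arrays overlapped, with means of 8.51 in beta cells and 8.33 in EP. With the mean of both probes Slc30a7 was 0.49 higher (limma, adjusted p = 0.00166).

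Within the progenitors, Slc30a8 was lower at the later stage. It was 4.64, 5.31 and 4.51 in E15.5 progenitors, against 7.61, 7.57, 8.06 and 7.69 in E11.5 Sox9+ progenitors. The stages did not overlap, and the difference was -2.91 ± 0.19, or 7.54-fold lower (limma, adjusted p = 8.68e-16). This was the only call among 8 members, with 13.6% of genes called. Endocrine markers moved with it: Gcg averaged 8.28 ± 0.91 in E15.5 progenitors (SD, n = 3) and 13.68 ± 0.12 in E11.5 progenitors (n = 4), and Neurod1, an endocrine transcription factor gene, 7.08 and 11.67. The mean of the 5 alpha cell markers measured was 7.38 at E15.5 and 11.31 at E11.5. The part of early endocrine cells in the E11.5 level was not tested.

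Neurog3 directs progenitors to the endocrine fate, and its loss was checked in the null libraries first. Neurog3 was 10.97, 10.29, 10.70 and 10.32 in Neurog3-null cells, against 13.34, 13.41 and 13.44 in EP. All null arrays were lower (difference -2.83, limma adjusted p = 9.83e-09), but the null level remained far above 6.64, and whether the probe lies within the replaced sequence is not given in the sources used here. Slc30a8 was 4.12, 4.57, 4.46 and 4.11 in Neurog3-null cells, against 10.17, 9.93 and 9.49 in EP. The null values lay at the level of E15.5 progenitors and duct cells, and the difference from EP was -5.55 ± 0.19, or 46.8-fold lower (adjusted p = 6.89e-25). Of the 8 members, 2 were called, Slc30a8 and Slc30a10, in a comparison that called 32.9% of genes. Slc30a10 was tested only because of 1 null array, as given below. Macrophage markers averaged 11.34 in null cells and 6.02 in EP, with all 16 tested markers higher. The alpha cell markers measured averaged 7.26 in null cells and 11.65 in EP, and the acinar markers 12.01 and 9.36. The part of macrophages, hormone-expressing cells and acinar cells in the null results was not tested.

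**Figure D2:**
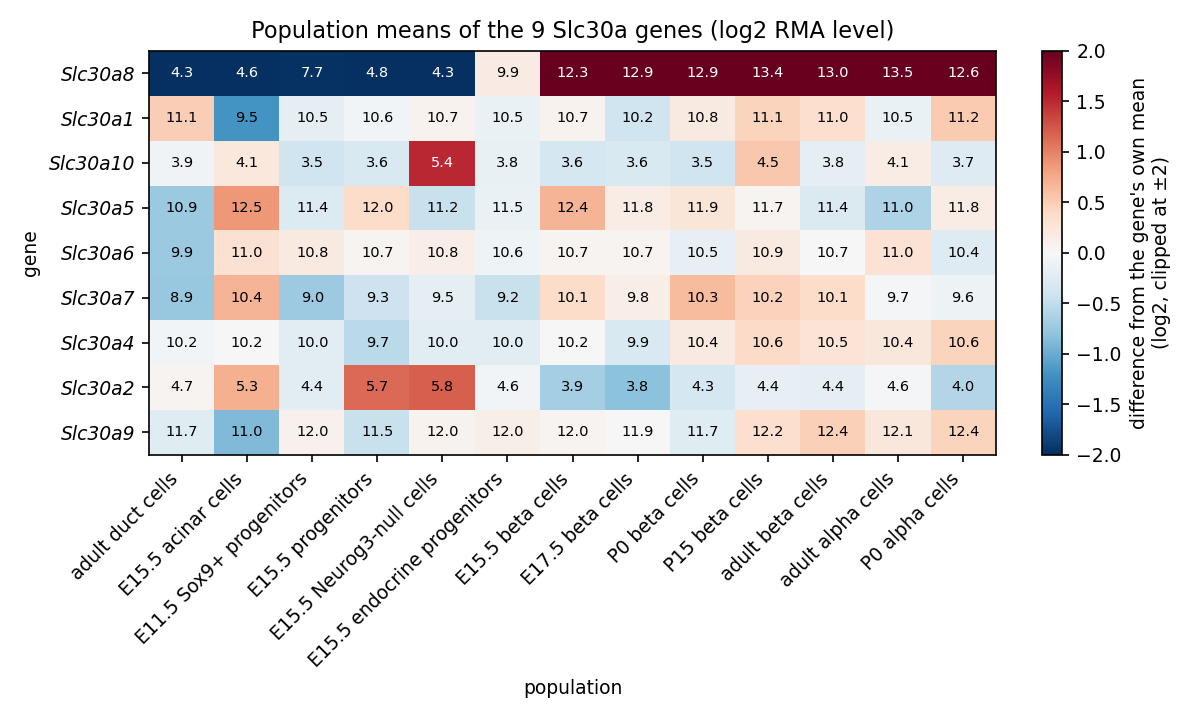
Mean log2 level (number in each cell) of the 9 Slc30a genes (rows) in the 13 populations (columns). Colour is the difference from the gene's own mean over populations, limited to 2 units each way. Slc30a8 is high in the beta and alpha columns, between in EP (9.87) and E11.5 progenitors (7.73), and low in the remaining columns. The other rows vary by 2.03 units or less.

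After E15.5, Slc30a8 stayed high in beta cells and no member changed 2-fold at any step to adulthood. Its values were 12.71, 13.07 and 13.05 at E17.5, 12.88, 12.75 and 13.04 at P0, 13.48, 13.49, 13.39 and 13.31 at P15, and 12.99, 12.95, 12.85 and 13 in adults. Adjusted p was below 0.05 for the steps to E17.5 (0.62 higher, 0.0127) and to P15 (0.53 higher, 0.016). P15 values all lay above those of every other beta cell stage, while the adult level, 0.47 below P15, had an adjusted p of 0.0541. Markers of other cells changed over the same steps. Mesenchymal markers averaged 9.87 at E15.5, 11.92 at E17.5, 12.39 at P0 and 6.12 at P15. Endothelial markers averaged 10.93 at P0 and 6.11 at P15, and macrophage markers 7.61 at P15 and 11.30 in adults. The part of these cells in the Slc30a8 steps was not tested.

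From E15.5 to E17.5 in beta cells, limma called 0 of 8 members against 11% of genes, with 4 members at an unadjusted p under 0.05. From E17.5 to P0 it called 0 against 6.01%, with 3 under 0.05. From P0 to P15 it called 0 against 25%, with 4 under 0.05, and from P15 to adult 0 against 9.71%, with 2 under 0.05. The methods' t-test at the same thresholds also called 0 members at each of these 4 steps. Over the whole course, postnatal beta cells (P15 and adult) against fetal ones (E15.5, E17.5 and P0) gave 0 calls against 21.1% of genes, with 6 members under an unadjusted p of 0.05 and 5 under the adjusted threshold. These 5 were Slc30a8 (0.47 higher), Slc30a9 (0.47 higher), Slc30a1 (0.44 higher on its brighter probe), Slc30a4 (0.36 higher) and Slc30a5 (0.47 lower). Mesenchymal markers also changed over these stages, as given above, and their part in these differences was not tested.

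Alpha cells expressed Slc30a8 at levels close to those of beta cells. In adults it was 12.99, 12.95, 12.85 and 13 in beta cells, against 13.40, 13.44, 13.67, 13.55 and 13.62 in alpha cells. Every adult beta array lay below every adult alpha array, by 0.59 on average (95% confidence interval of the difference -0.91 to -0.26, limma, adjusted p = 0.00327). Macrophage markers averaged 11.30 in the adult beta and 5.80 in the adult alpha gate, acinar markers 12.47 and 9.31, and duct markers 10.43 and 7.16. The part of these cells in the difference was not tested. At P0 the order was reversed: Slc30a8 was 12.88, 12.75 and 13.04 in beta cells, against 12.40, 12.67, 12.54 and 12.62 in alpha cells. Those arrays did not overlap either, but the difference of 0.33 had a 95% interval of -0.04 to 0.70 (adjusted p = 0.146). At P0, mesenchymal markers averaged 12.39 in beta and 11.05 in alpha cells, endothelial markers 10.93 and 9.43, and macrophage markers 9.94 and 7.68. Their part at P0 was not tested.

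In alpha cells from P0 to adult, Slc30a8 was 0.98 higher, a 1.97-fold difference with no overlap (limma, adjusted p = 3.89e-06), just under the 2-fold limit. Mesenchymal markers averaged 5.77 in adult and 11.05 in P0 alpha cells, endothelial markers 5.54 and 9.43, and macrophage markers 5.80 and 7.68. Their part in the Slc30a8 difference was not tested. Limma called 0 of 8 members between these stages against 22.6% of genes, with 6 under an unadjusted p of 0.05, and the methods' t-test also called 0. For P0 beta against P0 alpha cells it called 0 against 20.1%, with 3 under 0.05, and for adult beta against adult alpha cells 0 against 17.6%, with 6 under 0.05. The methods' t-test called 0 in both.

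Whether beta and alpha cells changed differently between P0 and adulthood was tested directly as an interaction. Limma called 0 of 8 members at 2-fold against 23.4% of genes, with 5 under an unadjusted p of 0.05, and 3 members had an adjusted p below 0.05. For Slc30a8 the change in beta cells was 0.91 ± 0.25 smaller than in alpha cells (adjusted p = 0.00349). For Slc30a9 it was 0.93 ± 0.15 larger in beta cells (adjusted p = 8.75e-06), and for Slc30a1 0.81 ± 0.24 larger (0.00782). The Slc30a1 result depended on the probe: the dimmer Slc30a1 probe gave -1.03 (adjusted p = 0.0029). Mesenchymal markers were higher at P0 in both lineages (7.51 in adult and 12.39 in P0 beta cells, 5.77 in adult and 11.05 in P0 alpha cells). Macrophage markers went opposite ways, at 11.30 in adult and 9.94 in P0 beta cells and at 5.80 in adult and 7.68 in P0 alpha cells, and acinar markers likewise, at 12.47 and 12.08 in beta and 9.31 and 10.75 in alpha cells. The part of these cells in the interactions was not tested.

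Slc30a5 and Slc30a6 form a heteromeric transporter of the early secretory pathway, and Slc30a7 works beside them in the same compartments. Together they supply zinc to secreted and membrane enzymes such as alkaline phosphatases. All 3 had their highest population mean in E15.5 acinar cells, whose arrays overlapped the next population in each case. Their lowest mean was in adult duct cells. On the dimmer Slc30a7 probe adult alpha cells were lowest, at 7.98 against 8.21 in duct cells.

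Slc30a7 was 10.40, 10.32 and 10.41 in acinar cells, against 9.16, 9.34 and 9.32 in E15.5 progenitors. The groups were far apart compared with their spread, and Slc30a7 rose by 1.10 ± 0.18 or 2.15-fold (limma, adjusted p = 7.17e-06). A second Slc30a7 probe gave 0.80 (adjusted p = 0.0011), short of 2-fold. In the same comparison Slc30a5 was 12.63, 12.35 and 12.63 in acinar cells, against 12.10, 12.13 and 11.90 in progenitors, 0.50 higher (adjusted p = 0.048). Slc30a7 and Slc30a1 were the 2 of 8 members called here, against 11.7% of genes. The 12 endothelial markers averaged 9.15 in acinar cells and 5.40 in progenitors, and their part in these differences was not tested.

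Slc30a5 was 10.97, 11.04, 10.92 and 10.80 in adult duct cells, against 12.10, 12.13 and 11.90 in E15.5 progenitors. It fell by 1.11 ± 0.17 or 2.16-fold without overlap (limma, adjusted p = 5.01e-07), and was the only member of 8 called between these populations, where 34.7% of genes were. Slc30a6 was 9.49, 9.92, 10.15 and 10.17 in duct cells, below all 44 other arrays. It was 0.79 lower than in E15.5 progenitors (adjusted p = 5.65e-06) and 0.73 lower than in adult beta cells (5.58e-06), both short of 2-fold. Macrophage markers averaged 11.64 in duct cells and 5.81 in progenitors, and their part in these differences was not tested.

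Adult duct cells against adult beta cells gave 2 calls among 8 members, Slc30a7 and Slc30a8, against 32.7% of genes. Macrophage markers were close in these populations, at 11.64 in duct and 11.30 in beta cells. Slc30a7 was 9.11, 9.22, 8.66 and 8.77 in duct cells, against 9.90, 10.22, 9.99 and 10.13 in adult beta cells. All duct arrays were lower, by 1.12 ± 0.15 or 2.17-fold (limma, adjusted p = 4.32e-08), but the second probe differed by only -0.35 (0.055). Slc30a8 was 4.69, 4.29, 4.09 and 3.95 in duct cells, 8.69 ± 0.17 below adult beta cells (414-fold lower, adjusted p = 9.76e-33).

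Slc30a7 was also higher in beta than in alpha cells. At P0 it was 10.57, 10.27 and 10.13 in beta cells, against 9.67, 9.39, 9.74 and 9.57 in alpha cells, without overlap. The difference was 0.73 (limma, adjusted p = 3.61e-04). In adults it was 0.39 (adjusted p = 0.027), with overlapping arrays, and the second probe gave 0.52 and 0.58 (0.012 and 0.002). None of these reached 2-fold. Acinar markers also differed, at 12.08 in beta and 10.75 in alpha cells at P0 and 12.47 and 9.31 in adults, as did macrophage markers, at 9.94 and 7.68 at P0 and 11.30 and 5.80 in adults, and their part was not tested. In alpha cells Slc30a5 was 10.90, 10.55, 11.10, 11.31 and 11.38 in adults, against 11.85, 11.63, 11.88 and 11.92 at P0, 0.77 lower (adjusted p = 3.71e-05). Slc30a6 was 0.54 higher in adult than in P0 alpha cells (3.07e-04).

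**Figure D3:**
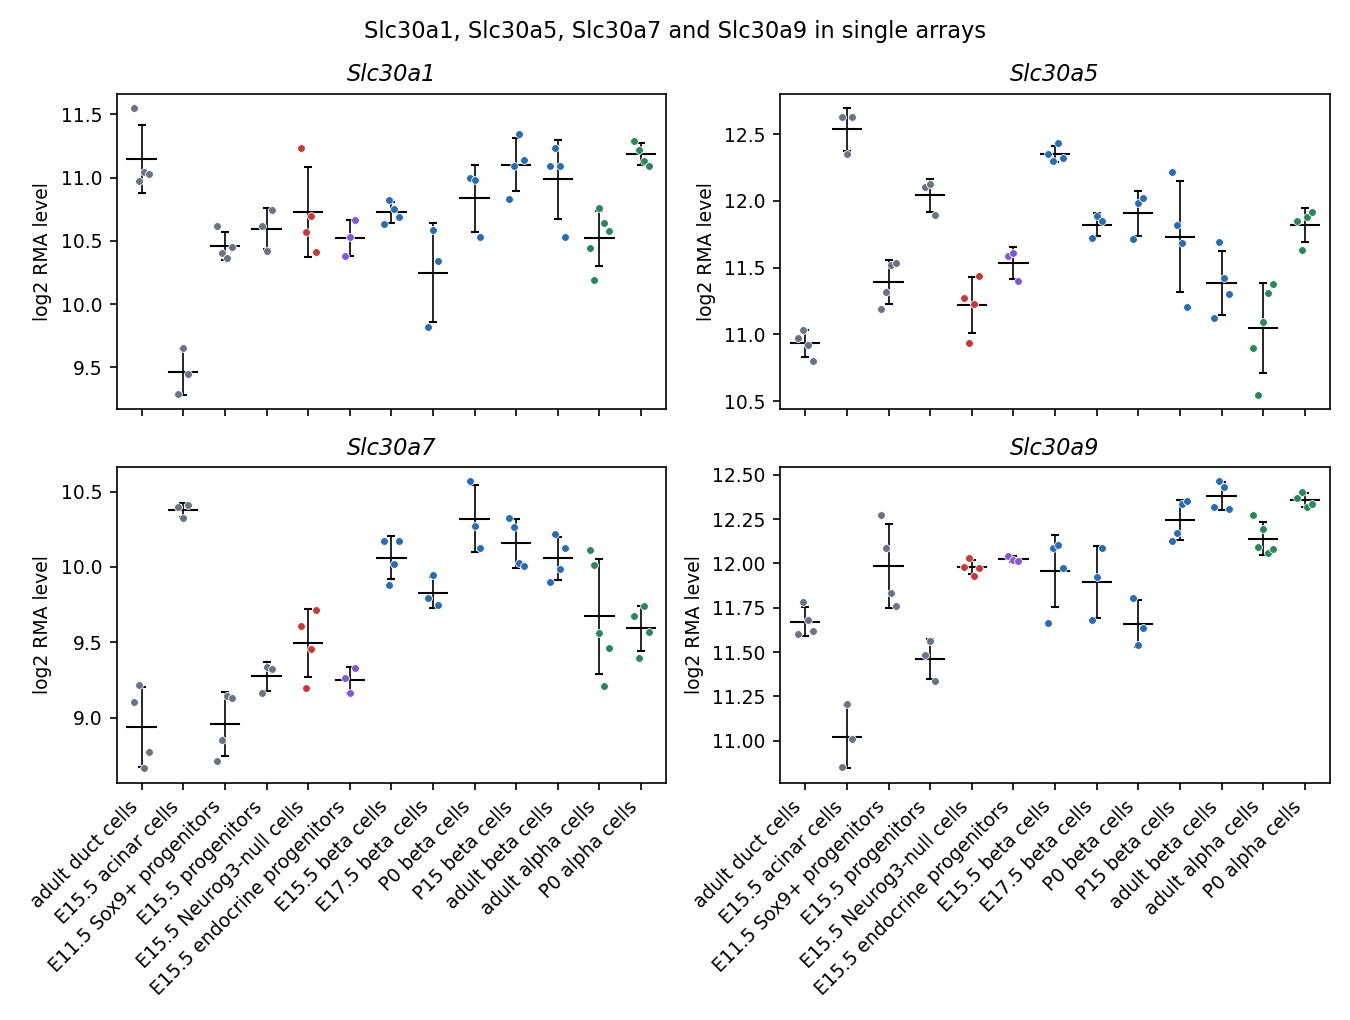
Log2 levels of Slc30a1, Slc30a5, Slc30a7 and Slc30a9, each on its brightest probe, in every array, by population (1 panel each, vertical axes on their own ranges). Points are arrays, black lines means and bars SD: acinar cells have the lowest Slc30a1 and Slc30a9 and the highest Slc30a5 and Slc30a7, and duct cells the lowest Slc30a5 and Slc30a7.

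Slc30a1 encodes the plasma membrane exporter ZnT1, a known target of Mtf1. Acinar cells stood apart from all other populations on its brightest probe. Slc30a1 was 9.29, 9.66 and 9.45 in acinar cells, against 10.62, 10.42 and 10.75 in E15.5 progenitors. No other array of the 48 was as low as any acinar array, and Slc30a1 fell by 1.13 ± 0.19 or 2.19-fold (limma, adjusted p = 2.46e-05). On the dimmer probe the difference was -0.49 (adjusted p = 0.113), and acinar cells, at 7.90, were above adult beta cells at 7.44 and both alpha populations. With the mean of both probes it was -0.81, short of 2-fold. On the brighter probe the remaining populations averaged between 10.25 and 11.18, and each overlapped its neighbour in that order.

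The 2 Slc30a1 probes did not move together (Pearson r = 0.21 over the 48 arrays, a description). On the brighter probe postnatal beta cells were 0.44 above fetal ones (limma, adjusted p = 8.75e-04), and on the dimmer one 0.44 below (0.003). Duct cells were 1.39 above adult beta cells on the dimmer probe, where the brighter one gave no adjusted p below 0.05. No direction is therefore given for Slc30a1 in these comparisons.

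Metal response elements are the DNA motif through which Mtf1 acts. Windows that hold TGCACNC are shown for the 2 members with it, and for the metallothionein genes Mt1 and Mt2, the best known targets. Promoter windows of 300 bases, 250 before and 50 after the annotated start, came from RefSeq on build GRCm38.p6 and covered 8 of the 9 members, Slc30a8 being the other. Both strands were searched for TGCACNC and for TGCGCNC, which has G in place of A. The label near form for TGCGCNC refers to this letter only and does not rank the forms. Capitals mark the motif, on the strand where it reads forward.
Slc30a1, chr1:191906726-191906755, minus strand: aaactttgcttTGCACTCggaacccccgtt
Slc30a1, near form, chr1:191906799-191906828, minus strand: tccgcggcgacTGCGCTCggcccggaggcg
Slc30a4, chr2:122702652-122702681, plus strand: gccccagccacTGCACCCgcccgccccgtg
Mt1, chr8:94179055-94179084, plus strand: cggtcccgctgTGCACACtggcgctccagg
Mt1, chr8:94179080-94179109, plus strand: ccagggagctcTGCACTCcgcccgaaaagt
Mt2, chr8:94172384-94172413, plus strand: agcatcgcctcTGCACCCggcccctcgggc
Mt2, chr8:94172556-94172585, minus strand: gggacagagccTGCACACgccctcccccca

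TGCACNC occurred in 12.6% of 32851 such windows, TGCGCNC in 15.4% and either in 25.7%. The near form also lay in the windows of Slc30a2 (2 matches), Slc30a4 (2), Slc30a5 (1) and Slc30a10 (3), and the windows of Slc30a6, Slc30a7 and Slc30a9 held neither form. A match of these letters describes the window only.

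Metallothionein levels were set beside Slc30a1 because both are induced by zinc. Mt1 averaged 13.45 in acinar cells and 13.30 in E15.5 progenitors, near its highest level over the populations. Mt1 was 1.65 lower in EP than in E15.5 progenitors (limma, adjusted p = 1.32e-06), and 1.85 higher in Neurog3-null cells than in EP (2.09e-08). Over the 13 population means Slc30a1 correlated with Mt1 at r = -0.23 and with Mt2 at -0.34, and Slc30a8 at -0.63 and -0.78, as descriptions over populations that share a lineage.

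Slc30a4 encodes ZnT4, found in endosomes, vesicles and the trans-Golgi network and known from the lethal milk mouse, whose milk lacks zinc. It was the steadiest member. Its values were 9.55, 9.70 and 9.74 in E15.5 progenitors, the lowest population, and 10.59, 10.66, 10.71 and 10.63 in P0 alpha cells, the highest. Although 10 of 17 comparisons gave an adjusted p below 0.05, no difference exceeded 0.54, the difference of acinar cells from E15.5 progenitors (limma, adjusted p = 6.66e-04). Adult duct cells were 0.49 above E15.5 progenitors (2.46e-04), and P0 beta cells 0.48 above E17.5 beta cells (0.00501).

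Slc30a2, a vesicular zinc transporter of secretory epithelia, was below 100 in every array and was not tested. Its highest values were 5.08, 6.42, 5.79 and 5.94 in Neurog3-null cells and 5.57, 5.67 and 5.96 in E15.5 progenitors. Acinar cells followed at 5.33, 5.22 and 5.38, and E17.5 beta cells were lowest at 3.90, 3.64 and 3.81. At this brightness the order of populations gives no measured amount.

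Slc30a9 encodes ZnT9, a mitochondrial zinc exporter. It was lowest in acinar cells. Slc30a9 was 10.85, 11.21 and 11.01 in acinar cells, against 11.48, 11.56 and 11.34 in E15.5 progenitors, 0.44 lower without overlap (limma, adjusted p = 0.008). In beta cells it was 12.13, 12.17, 12.33 and 12.35 at P15, against 11.80, 11.54 and 11.64 at P0, 0.58 higher (5.81e-05). All postnatal beta cell arrays lay above all fetal ones, by 0.47 (4.24e-07). Mesenchymal markers averaged 6.12 at P15 and 12.39 at P0, and endothelial markers 6.11 and 10.93, and their part in the P15 difference was not tested.

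At P0, Slc30a9 was lower in beta than in alpha cells. It was 11.80, 11.54 and 11.64 in P0 beta cells, against 12.37, 12.40, 12.32 and 12.34 in P0 alpha cells, a difference of -0.70 (limma, adjusted p = 5.25e-06). In adults it was 12.32, 12.46, 12.43 and 12.31 in beta cells and 12.27, 12.09, 12.20, 12.06 and 12.08 in alpha cells, 0.24 higher in beta (adjusted p = 0.052). The mean difference thus had opposite signs at the 2 ages, but in adults its adjusted p was not below 0.05. The interaction given above tests whether the changes with age differed, not whether the sign did. Macrophage markers averaged 9.94 in P0 beta and 7.68 in P0 alpha cells, and 11.30 and 5.80 in adults. Mesenchymal markers averaged 12.39 and 11.05 at P0, and the part of these cells was not tested. No difference of Slc30a9 in the 17 comparisons reached 2-fold, the largest being the interaction.

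Slc30a10 encodes ZnT10, a plasma membrane exporter whose human counterpart carries manganese. Only 1 array of 48 exceeded 100, Neurog3-null replicate 3, and the probe was tested only because of that array. Slc30a10 was 3.95, 5.26, 7.19 and 5.31 in Neurog3-null cells, against 3.53, 4.00 and 3.79 in EP. The lowest null array lay within the EP range, and the fitted difference was 1.65 ± 0.39 (limma, adjusted p = 4.2e-04). Without Neurog3-null replicate 3 it was 1.06 (0.00525), and in a fit of these populations alone the adjusted p was 0.0515. A second probe gave 5.44 in null cells and 3.01 in EP without overlap. It too exceeded 100 in only 1 array, of null cells (7.86), and passed the filter only through it. Both groups averaged below 6.64, so the size is not exact.

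Several erythroid genes were high in the same null arrays as Slc30a10, and 3 are given in full. Klf1, a red cell transcription factor gene, was 8.97, 11.05, 11.73 and 10.34 in null cells, against 6.45, 6.96 and 7.91 in EP. Ermap, which encodes an erythroid membrane protein, was 8.16, 9.56, 11.06 and 9.55 in null cells, against 4.83, 4.54 and 4.66 in EP. Rhag, a red cell membrane gene, was 3.83, 6.53, 8.20 and 5.80 in null cells, against 2.80, 2.83 and 2.97 in EP. Every null array lay above every EP array for these 3 genes, and all 3 were highest in null replicate 3 and lowest in replicate 1, as Slc30a10 was. Of the 8 markers measured, 6 were highest in replicate 3 and 7 lowest in replicate 1, Alas2 was highest in replicate 2 (6.93), and the null arrays of 3, Slc4a1 among them, overlapped EP. Of 7 tested erythroid markers, 6 were called higher in null cells, and the mean of the 8 measured was 6.42, 7.77, 8.21 and 7.24 there, against a mean of 5.24 in EP. The globin gene Hba-a1 averaged 3.86 in null cells, far below 100. The sorts used Ter119 and CD45, surface markers of red cells and leukocytes, to remove blood cells. The part of red cell precursors in the Slc30a10 result was not tested.

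**Figure D4:**
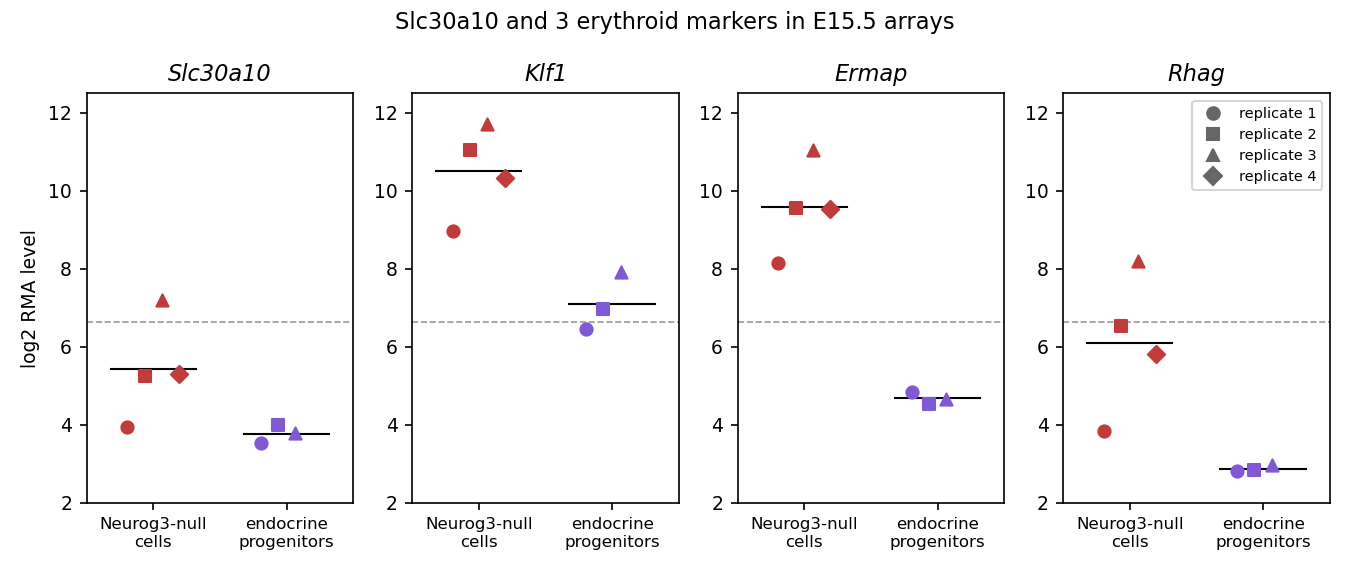
Log2 levels (vertical axis) of Slc30a10 and the erythroid genes Klf1, Ermap and Rhag in Neurog3-null cells (left in each panel) and EP (right). Marker shape gives the replicate number, black lines are means and the dashed line marks 100 on the linear scale: replicate 3 of the null cells is highest for all 4 genes and replicate 1 of the null cells lowest among them.

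Across the 17 comparisons, the 8 tested Slc30a genes gave 11 calls, 5 higher and 6 lower, in 8 comparisons. Slc30a8 took 6 of them, Slc30a7 2, and Slc30a1, Slc30a5 and Slc30a10 1 each, the Slc30a10 call being of a probe that passed the filter through 1 array of its higher group. Slc30a4, Slc30a6 and Slc30a9 took none, though each had adjusted p-values below 0.05, in 10, 5 and 9 comparisons. The opposing Slc39a importers gave 43 calls from 13 tested genes, 23 higher and 20 lower, in 15 comparisons. The metallothioneins with Mtf1 gave 11 from 4 genes, and the alkaline phosphatases 9 from 4. Over all genes tested, 20% of the pairs of a gene and a comparison were called, against 19.5% for the importers, 16.2% for the metallothioneins with Mtf1, 13.2% for the phosphatases and 8.09% for the tested Slc30a genes. The lists differ in size and members, and the importer share was near that of all genes.

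Between beta and alpha cells and the wild-type non-endocrine cells, 3 of 13 Slc39a importers were called, all lower, a share near the 24.4% of all genes. The list median was -0.15, against -0.01 over all genes. The 3 were Slc39a8, a zinc and manganese importer (1.64 lower, limma adjusted p = 9.49e-10), Slc39a4, the intestinal zinc importer (1.45 lower, 3.98e-16), and Slc39a5 (1.08 lower, 4.14e-08). The arrays of the groups overlapped for all 3. With adult beta and duct cells set aside, Slc39a8 was at -1.63, while Slc39a4 at -0.91 and Slc39a5 at -0.96 were short of 2-fold.

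Slc39a4 had its highest mean in duct cells. It averaged 9.84 in adult duct cells and 6.64 in E15.5 progenitors, 3.20 higher (limma, adjusted p = 6.43e-15), and was 2.36 above adult beta cells (2.4e-12). Slc39a10 went the other way, at 9.53 in duct cells and 12.04 in E15.5 progenitors, and fell by 2.50 (1.88e-11). Slc39a14, a zinc, iron and manganese importer, was 1.47 higher in duct cells than in E15.5 progenitors (0.00176) and 1.20 higher in acinar cells than in progenitors (0.0422). Slc39a5 was 1.58 higher in acinar cells than in progenitors (0.00144).

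Slc39a2 and the alkaline phosphatase gene Alpl had their highest means in EP. Slc39a2 averaged 7.41 ± 0.43 in EP (SD, n = 3) and 5.61 ± 0.12 in E15.5 progenitors (n = 3), 1.80 higher (limma, adjusted p = 5.9e-09). It was 1.79 lower in E15.5 beta cells than in EP (4.94e-09), and 2.16 lower in Neurog3-null cells than in EP (7.16e-12). Alpl was 2.33 higher in EP than in progenitors (3.6e-11), 2.64 lower in E15.5 beta cells than in EP (1.11e-12) and 2.66 lower in null cells than in EP (9.42e-14). Slc39a2 exceeded 100 only in the 3 EP arrays and entered the tests only through them, so its p-values are no independent sign of an EP peak and its differences are not exact in size.

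With age, 2 importers fell in both endocrine lineages. Slc39a10 averaged 9.52 in P15 and 11.12 in P0 beta cells, 1.60 lower (limma, adjusted p = 7.93e-07), and 8.76 in adult and 10.96 in P0 alpha cells, 2.20 lower (3.44e-11). Slc39a8 was 2.87 lower in P15 than in P0 beta cells (1.16e-06) and 2.52 lower in adult than in P0 alpha cells (1.06e-06), sizes that are not exact because the older cells averaged 6.09 and 6.07, below 6.64. Endothelial markers averaged 6.11 in P15 and 10.93 in P0 beta cells and 5.54 in adult and 9.43 in P0 alpha cells, and mesenchymal markers were lower with age in both lineages. Slc39a8 was then 2.04 higher in adult than in P15 beta cells (2.7e-04), with overlapping arrays, and macrophage markers averaged 11.30 in adult and 7.61 in P15 beta cells. Mt1 was 1.25 higher in postnatal than in fetal beta cells (2.33e-09) and 1.01 higher in adult than in P0 alpha cells (9.61e-05). The part of other cell types in these differences was not tested.

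**Figure D5:**
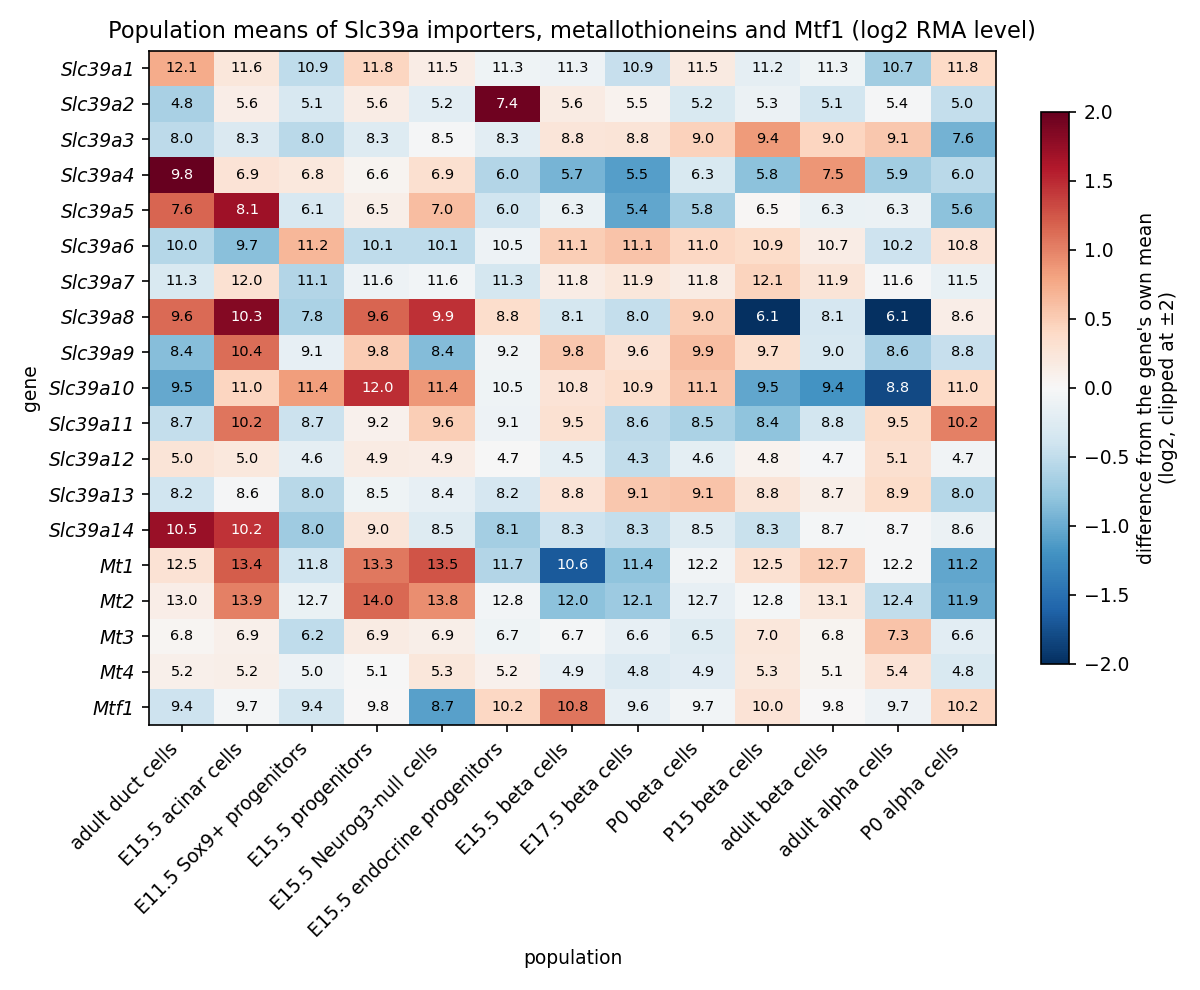
Mean log2 level (number in each cell) of the Slc39a importers, metallothioneins and Mtf1 (rows) in the 13 populations (columns). Colour is the difference from each gene's own mean, limited to 2 units each way: Slc39a4 is highest in duct cells at 9.84, Slc39a2 in EP at 7.41, and Slc39a10 lowest in adult alpha cells at 8.76.

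The genes whose population means ran most like each member were named as a description over 13 points that share lineages. For Slc30a8 the nearest were the potassium channel subunit gene Kcnmb2 (Pearson r = 0.990), the granule protein gene Scg2 (0.987), the somatostatin receptor gene Sstr3 (0.987), Myt1l (0.985) and Slc2a5 (0.985). For Slc30a7 they were Plpp5 (0.947), Ssr4 (0.930), Surf4 (0.920), Slc39a7 (0.906) and Spcs3 (0.899).

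For Slc30a5 the nearest genes were Prkar2a (0.922), Tmco1 (0.921) and Qsox2 (0.918), and for Slc30a6 Coq2 (0.968), Mtg1 (0.961) and Dap3 (0.950). For Slc30a9 they were 1600020E01Rik (0.950), Tmcc2 (0.946) and Ppp1r3f (0.935), for Slc30a1 Wdfy3 (0.890), Abhd5 (0.885) and Coro2a (0.878), and for Slc30a4 Dagla (0.879), Ankrd46 (0.862) and Recql5 (0.860). Those nearest to Slc30a10 were Treml2 (0.933), the blood lineage transcription factor gene Gfi1b (0.927), Saa4 (0.923), Mcpt8 (0.912) and Cyp2c68 (0.911). All Slc30a10 population means lay below 6.64, and its probe was tested only because of 1 null array, so these correlations rest on values near the floor. Among the members themselves, the highest correlations were 0.68 for Slc30a1 with Slc30a9, 0.65 for Slc30a8 with Slc30a9 and 0.61 for Slc30a4 with Slc30a8.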

How the data were processed

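RNA from sorted cells was read on whole-genome Affymetrix mouse arrays. The authors normalized all 48 arrays together by RMA, and the deposited values are log2 expression per probe (R 2.11.1 in the submitters' notes). Replicate numbers came from the labels, and the authors call the replicates biological. Samples were pools from several animals where their make-up is given, so p-values measure the spread between these samples, not between single animals. Of 45101 probes, 34958 had 1 gene symbol, 932 several and 9211 none. Probes above 100 (linear) in at least 1 array (32078) entered one limma fit (version 3.58.1, R 4.3.3) of 13 population means with 17 contrasts. P-values were adjusted by Benjamini-Hochberg over all tested probes, and a call needed an adjusted p of 0.05 and a log2 difference of 1. Percentages of genes called are over the brightest probe of 14405 genes. Named genes were the 9 members, up to 4 called genes with the largest difference per zinc list and comparison, the 5 genes nearest each member and markers. The members and lists were chosen with earlier results of these data known. The number of arrays, 3 to 5 a population, limits the precision. Same-numbered replicates deviated together in every pair only for E15.5 against E11.5 progenitors (r between 0.11 and 0.15). Alternatives were the filter, fold threshold, probe rule, normalization, array weights, the populations fitted, a replicate block, the methods' t-test and leaving out each array. Setting aside adult beta and duct cells was chosen after seeing the data. The scripts were tested on simulated data. Symbols are those of the platform annotation.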

Additional observations from a re-analysis of the deposited data

Results flagged for a closer look

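In 72 sets of 1 gene in 1 population of 4 or 5 arrays, 5 arrays stood apart from the others of their population, and chance gives about 1 in 20. Slc30a10 was 5.98 in P15 beta replicate 1, against 3.74 to 4.09 in the other P15 arrays. The same array had Alpi at 10.27 (4.74 to 5.17 in the others) and 13 acinar markers averaging 12.96 (10.24 to 10.82). Slc30a1 was 11.55 in duct replicate 1, against 10.97 to 11.04 in the other duct arrays. The other 3 lay below 6.64: Slc30a2 at 4.17 in E11.5 replicate 3 (4.46 to 4.48 in the others), Slc30a2 at 4.63 in adult beta replicate 4 (4.31 to 4.34), and Slc30a10 at 3.44 in adult beta replicate 3 (3.83 to 3.88). The change between P0 and adulthood differed between beta and alpha cells for Slc30a1 (0.81), Slc30a8 (-0.91) and Slc30a9 (0.93), by the interaction test given above.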

How the results depend on the processing

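With no fold threshold, the count of members passing was 4 for E15.5 against E11.5 progenitors, 5 for acinar cells against progenitors, 4 for EP against progenitors, 3 for E15.5 beta cells against EP, 3, 2 and 4 for the beta cell steps to E17.5, P0 and P15, 5 for postnatal against fetal beta cells, 4 for adult against P0 alpha cells, 3 and 4 for beta against alpha cells at P0 and in adults, 5 and 6 for duct cells against progenitors and adult beta cells, 5 for endocrine against non-endocrine cells and 3 for the interaction. For Neurog3-null cells against EP the count was 1 with a filter of 24 arrays, with these populations alone and with the methods' t-test, Slc30a10 being lost each time. With array weights adult against P0 alpha cells had 1 call (Slc30a8, 1.03). With the mean of all probes of a gene, acinar cells against progenitors had 0 calls (Slc30a1 -0.81, Slc30a7 0.95), duct against adult beta cells 1, and Slc39a9, 1.08 higher in P0 beta than in P0 alpha cells, was at -0.079 (adjusted p = 0.755). With the replicate block, P15 against P0 beta cells had 1 call (Slc30a10, 1.08), though same-numbered arrays there did not deviate together, and no other member count moved. Leaving out 1 array changed a member count in 7 of 176 fits. The range was 0 to 1 for P15 against P0 beta cells (Slc30a10, without P0 replicate 1 or P15 replicate 2, 3 or 4; without P15 replicate 1 its difference was 0.45, adjusted p = 0.283), 0 to 1 for adult against P0 alpha cells (Slc30a8, without P0 replicate 2 or adult replicate 1) and 0 to 1 for the interaction (Slc30a9, without P0 beta replicate 1). Setting aside adult beta and duct cells moved neither member count it touched, but Slc39a4, Slc39a5 and Alpl (-0.65) fell short of 2-fold between endocrine and non-endocrine cells. None of the 6 Slc30a8 calls was lost under any alternative run. The t-test was not run for the comparisons over several populations or the interaction.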
